A study of Mus musculus with 9 samples.

Results

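miR-22 was followed through every listing that names it in the small RNA counts of mouse B16F1 melanoma cells. The count table holds 2 hairpin entries for it, the known hairpin mmu-mir-22 and a computationally predicted hairpin, global-novelMiR-467, whose listing names mmu-mir-22. All rows of these 2 entries and the mature names mmu-miR-22-3p and mmu-miR-22-5p were taken, which gave 47 of the 6414 rows of the table, 45 of them with counts. They were chosen by their counts in BrdU against control cells, where miR-22 was higher, so its values in that contrast are given as a description and carry no test.

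B16F1 is a pigmented melanoma line derived from C57BL/6J mice. There were 3 groups of 3 libraries, each from an independent replicate. Control cells received neither agent, L-Tyr cells were exposed to L-tyrosine (5 mM), a substrate for melanin synthesis, and BrdU cells were exposed to 5-bromo-2′-deoxyuridine (2.5 μg/mL), a thymidine analogue that enters replicating DNA. All were kept for 72 h, and small RNA was sequenced to totals of 144452 to 424122 counts per library.

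A microRNA is cut from a hairpin transcript as a short duplex whose strands are called the 5p and 3p arms. The arm that is kept guides Argonaute proteins to messenger RNAs, mainly by pairing of its seed, bases 2 to 8 of the mature strand. miR-22-3p is the usual guide strand of its hairpin and is abundant in heart and skeletal muscle.

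The sequences from RefSeq (GRCm38.p6) are printed first because the comparison of the 2 entries rests on them. In the hairpin the mature arms are in capitals, and in the arms the seed is.
Mir22 hairpin: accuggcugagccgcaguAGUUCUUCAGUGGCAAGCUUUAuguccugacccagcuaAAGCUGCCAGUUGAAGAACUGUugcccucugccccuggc
mmu-miR-22-5p: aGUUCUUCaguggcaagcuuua
mmu-miR-22-3p: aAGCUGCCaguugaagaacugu
None of the 1679 mouse mature miRNA sequences searched, other than miR-22 itself, held either seed, so no seed family member could be added. In the mm9 build (NCBIM37) the 95 base hairpin lies on the plus strand at chr11:75277218-75277312, within an exon (chr11:75277195-75277359) of the non-coding gene 2210403K04Rik. The 3p arm lies at chr11:75277274-75277295 and the 5p arm at chr11:75277236-75277257. The hairpin, both arms and the most abundant tag each matched the genome once over both strands, all within Mir22.

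The reads were deposited as tags, short sequences that carry a start number within the hairpin. mmu-mir-22 had 26 tags, 20 from the 3p arm with 11085 counts and 6 from the 5p arm with 185 counts. The 5 most abundant 3p tags and the most abundant 5p tag are shown with the seed bases that each one holds in capitals.
3p tag 1: GCTGCCagttgaagaactgt
3p tag 2: aAGCTGCCagttgaagaact
3p tag 3: CTGCCagttgaagaactgt
3p tag 4: TGCCagttgaagaactgt
3p tag 5: aAGCTGCCagttgaagaac
5p tag 1: GTTCTTCagtggcaagcttt
The first tag held 48.4% of the counts of the arm and the second 19.6%, followed by 12.4%, 9.56% and 4.55%. No tag spanned the 22 base mature strand, since the longest tag anywhere in the table was 20 bases. The mature names themselves were listed at 0 in all 9 libraries.

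The predicted hairpin held the same molecule by sequence. Of its 18 tags, 14 were also listed under mmu-mir-22, with start numbers lower by 13 throughout. Over the 9 libraries these 14 tags had 5508 counts under mmu-mir-22 and 5555 under the predicted hairpin, so the known entry held 49.8% of them. That share was between 46.7% in L-Tyr replicate 3 and 53.2% in control replicate 1.

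The 2 sets of counts were close but seldom the same. Of 126 pairs of a tag and a library, 53 were at 0 under both entries, and only 7 of the 73 others were equal. Where 1 entry was at 0 and the other not, in 4 pairs, the other had at most 2 counts. For the 57 pairs with at least 10 counts in sum, the squared difference divided by the sum averaged 1.24, where pairs that differ by counting error alone average about 1. Known and predicted counts thus differed by little more than counting error, without being the same numbers listed again.

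The most abundant 3p tag had no tag of the same sequence under the predicted hairpin. Instead the predicted hairpin had 1 row without a sequence, with 5431 counts against 5366 of that tag. The per-library counts of that row were 260, 496 and 390 in control, 157, 719 and 335 in L-Tyr, and 492, 1699 and 883 in BrdU cells. The tag had 251, 466 and 393 counts in control, 174, 705 and 317 in L-Tyr, and 512, 1707 and 841 in BrdU cells. None of the 9 pairs was equal, and the same squared measure averaged 0.450. The row gives no sequence, so its identity with the tag was read from counts alone.

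**Figure D1:**
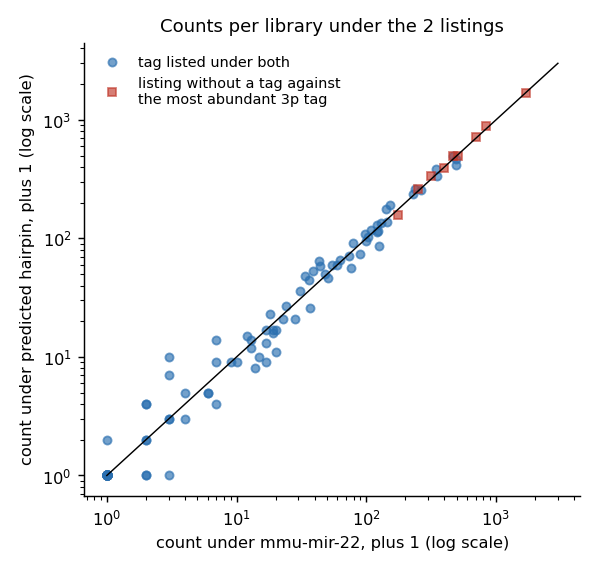
Counts of each tag in each library under the known entry (x axis) and the predicted entry (y axis), both plus 1 on log scales, for the 14 shared tags (circles) and for the row without a sequence against the most abundant 3p tag (squares). The line marks equality, and the points lie along it from 0 to 1707 counts.

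The 4 tags that only the predicted hairpin listed were also from the 3p arm, at 16 or 17 bases. The largest had 1147 counts and began at base 6 of the mature strand, past most of the seed, and no known hairpin listed it.
predicted tag: GCCagttgaagaactgt
It matched the genome at 2 places, 1 of them in the Mir22 hairpin. In the table as a whole, 81 of 152 tags under predicted hairpins were also listed under a known one, and 12 of 148 predicted hairpins named a known hairpin. Across both entries the 3p arm had 23336 counts, of which the mmu-mir-22 tags held 47.5%, the predicted tags 29.2% and the row without a sequence 23.3%. Since the shared tags had unequal counts, their reads were not all counted under both entries. How each read was assigned could not be read from the table, so the entries are described apart and their sum is given beside them.

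One library stood apart in marker content. BrdU replicate 3 had a summed level of 277933 CPM for 5 stromal markers, against 1759 to 6917 in the other 8 libraries. CPM are counts per 1000000 counts of the library after the TMM scaling explained below. The TMM factor of this library, 0.709, raised all its CPM above the plain share of counts. In BrdU replicate 3 the summed levels of the 4 erythroid markers (6795 CPM) and the 4 leukocyte markers (1556 CPM) were also far above the others, which reached 483 and 65.9 CPM. Most of the stromal sum was mir-143 (73848 counts) and most of the erythroid sum mir-451a (1462 counts). Not all markers followed. The erythroid mir-486a and mir-486b had 43 and 40 counts there, against 41 and 46 in BrdU replicate 1, a library with fewer counts. The leukocyte mir-150 had 0 there, and 3 of the 4 leukocyte markers were listed. Of the 2 melanocytic markers, mir-211 was present in every library, with 1312 to 6812 counts. The other, mir-204, had at most 14 counts and was at 0 in BrdU replicate 1. Their sums, mostly mir-211, were 10473 to 17833 CPM in control, 22874 to 25641 in L-Tyr and 6942 to 7634 in BrdU cells. Markers of muscle, a tissue rich in miR-22, were at 0 in 7 of 9 libraries and summed to 63.9 CPM in L-Tyr replicate 1 and 244 in BrdU replicate 3, with 5 of 8 at 0 or not listed everywhere. Whether these marker counts came from other cells, and what part they had in the results, was not tested. In bulk RNA a change in the share of cells and a change of RNA per cell cannot be told apart.

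The 3p arm of mmu-mir-22 was lowest in control and highest in BrdU cells. All CPM are TMM-scaled unless said otherwise, which means that the library size was adjusted for its composition by the trimmed mean of M values. Its levels were 2792, 2366 and 3158 CPM in control, 3714, 4898 and 3820 in L-Tyr, and 5770, 7629 and 6370 in BrdU cells. All 3 groups were apart without overlap, with means of 2772 ± 397, 4144 ± 655 and 6590 ± 949 (SD, n = 3). The predicted tags gave the same order, with 1657, 1443 and 1882 CPM in control, 3305, 2685 and 2669 in L-Tyr, and 3507, 4411 and 4048 in BrdU cells, again without overlap. Of all sums tested, 7.95% had every L-Tyr library above every control library. For BrdU over control the share was 11.8%, and for BrdU over L-Tyr 10.9%. The share that separated all 3 groups was not counted, and the control and BrdU libraries had served to choose miR-22.

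The row without a sequence followed less closely. It had 1256, 1162 and 1849 CPM in control, 1004, 2634 and 1785 in L-Tyr, and 2639, 3816 and 3264 in BrdU cells. Control and L-Tyr overlapped here, and L-Tyr replicate 2 (2634) lay just below the lowest BrdU library (2639). With both entries summed, miR-22-3p stood at 5705, 4970 and 6890 CPM in control, 8023, 10218 and 8275 in L-Tyr, and 11916, 15856 and 13682 in BrdU cells, with no overlap among the groups.

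That order rested in part on the scaling. As a plain share of all counts, the joined entries made up 0.594%, 0.500% and 0.551% of the control libraries and 0.869%, 1.17% and 0.890% of the L-Tyr libraries. The BrdU libraries held 1.30%, 1.84% and 0.971%, so that BrdU replicate 3 lay below L-Tyr replicate 2. The TMM factor of BrdU replicate 3 was 0.709, and control replicate 3 had 0.799, against 1.01 to 1.16 in the others. Both exposed groups were above every control library on either scale.

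**Figure D2:**
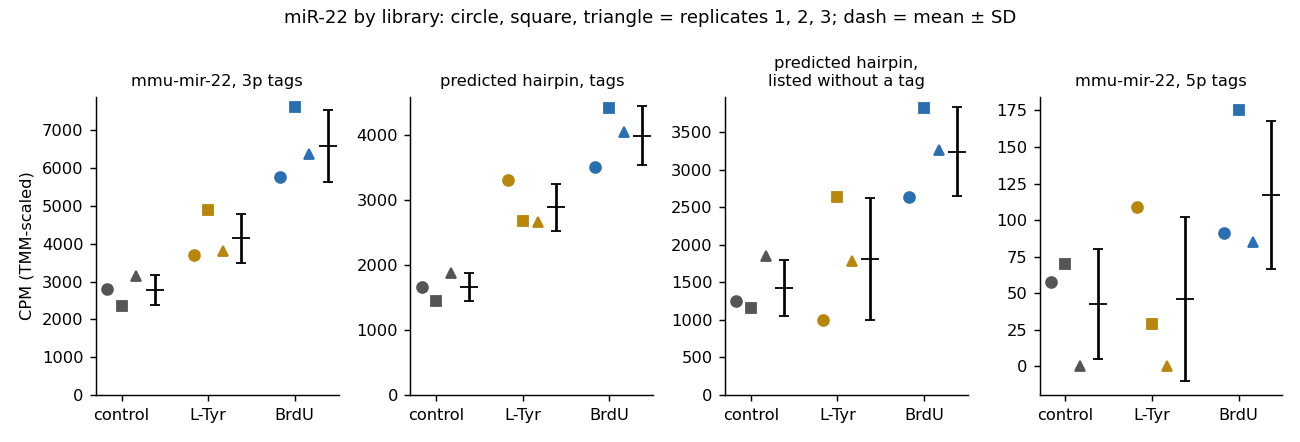
TMM-scaled CPM of the 4 miR-22 sums (y axes from 0, except the 5p panel, where an error bar runs below 0) in the 3 groups (x axes), with circle, square and triangle for replicates 1, 2 and 3 and a dash with bar for mean ± SD. The 3p tags of either entry separate all 3 groups, whereas L-Tyr overlaps control in the row without a sequence and overlaps both other groups in the 5p tags.

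L-Tyr against control was the comparison with an arm that played no part in the choice, although its control libraries did. Of 264 sums by entry and arm that passed the filter on low counts, 7 were called (2.65%), 5 of them higher in L-Tyr cells (1.89%), at an adjusted p under 0.05 by edgeR's quasi-likelihood test, and all 4 miR-22 sums with counts passed that filter. None of the 4 was called. The 3p arm of mmu-mir-22 differed by 0.60 ± 0.22 (log2 fold change ± SE), with an edgeR adjusted p of 0.253. The predicted tags differed by 0.82 ± 0.23, with an adjusted p of 0.143. For the row without a sequence the value was 0.37 ± 0.39, with an adjusted p of 0.786.

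The mmu-mir-22 3p arm and the predicted tags each had every L-Tyr library above every control library, as did 21 of the 264 sums (7.95%). The 2 sums share 14 tag sequences and 1 genomic hairpin, so they are not separate results. DESeq2's Wald test, run as an alternative, gave 0.89 ± 0.26 for the predicted tags with an adjusted p of 0.0133, which passed the threshold. For mmu-mir-22 3p the same tool gave an adjusted p of 0.0549. The joined entries differed by 0.63 ± 0.20 with an edgeR adjusted p of 0.170. Over all sums the median log2 fold change was -0.13. It shifted to 0.07 when libraries were scaled by their totals, and mmu-mir-22 3p then differed by 0.82 with an edgeR adjusted p of 0.0900.

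The row without a sequence depended on a single library. Without L-Tyr replicate 2 its log2 fold change was -0.0029 in place of 0.37.

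BrdU against control was the contrast that chose miR-22. The 3p arm of mmu-mir-22 was higher by 1.31 ± 0.22 (log2 fold change ± SE), the predicted tags by 1.32 ± 0.23 and the row without a sequence by 1.25 ± 0.28. The group means of mmu-mir-22 3p stood in a ratio of 2.38, and those of the joined entries in a ratio of 2.36. In this contrast 9 of 289 sums were called (3.11%), 8 of them higher in BrdU cells (2.77%), and 34 of the 289 (11.8%) had every BrdU library above every control library. Without BrdU replicate 3, the library with the stromal markers, the 3 values were 1.43, 1.41 and 1.34.

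BrdU against L-Tyr completed the design and used the same BrdU libraries, so it too is given without a test. mmu-mir-22 3p was higher in BrdU cells by 0.72 ± 0.21, the predicted tags by 0.52 ± 0.22 and the row without a sequence by 0.89 ± 0.37. Of 256 sums, 6 were called (2.34%), 3 of them higher in BrdU cells (1.17%), and 28 (10.9%) had every BrdU library above every L-Tyr library. The row without a sequence had 0.53 without L-Tyr replicate 1 and 1.24 without L-Tyr replicate 2. For the predicted tags, scaling by total count lowered the value to 0.31, and the most abundant tag fitted on its own gave 0.19. The median over all sums moved from 0.09 to -0.12 with that scaling.

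**Figure D3:**
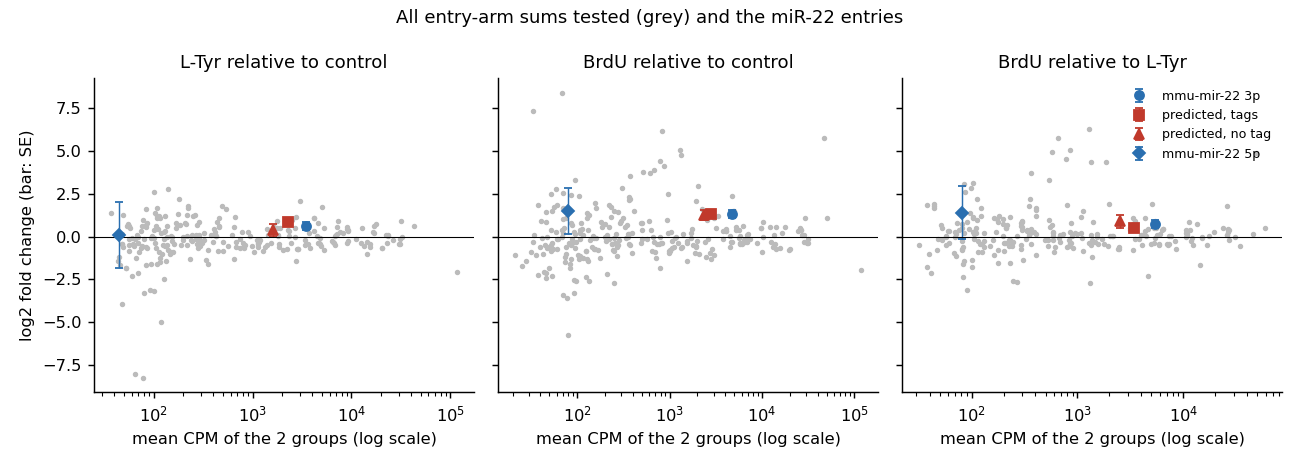
Log2 fold change (y axis) against the mean CPM of the 2 groups (x axis, log scale) for all sums tested in each comparison (grey), with the miR-22 sums in colour and bars for SE. The 3p sums lie above 0 in all 3 panels, and the 5p sum has the widest bars.

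The 5p arm, the strand that is usually discarded, was present at low counts. Its counts were 12, 30 and 0 in control, 17, 8 and 0 in L-Tyr, and 17, 78 and 23 in BrdU cells. A count of 0 in control replicate 3 allows up to 11.4 CPM by total count, and in L-Tyr replicate 3 up to 17.2 CPM. The arm made up 1.64% of the counts of mmu-mir-22 over all libraries. By library that share ran from 0% (95% Wilson interval up to 0.573% in control replicate 3) to 2.88% (2.03% to 4.09%) in control replicate 2.

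In 5p level L-Tyr overlapped both other groups, while the BrdU libraries (85.0 to 175 CPM) lay above the control libraries (0 to 70.3 CPM). The log2 fold change was 0.09 ± 1.92 for L-Tyr against control, with an edgeR adjusted p of 0.994, and no difference was detectable at this depth. Its sign turned without control replicate 3 (-0.49) and without L-Tyr replicate 1 (-1.50). The BrdU values were 1.48 ± 1.36 against control and 1.40 ± 1.53 against L-Tyr. The first was 0.94 without control replicate 3, and its most abundant tag alone gave 0.63. The second was 0.77 without L-Tyr replicate 3 and 2.92 without L-Tyr replicate 1. The most abundant 5p tag had counts in 3 libraries only, control replicate 2 (28), BrdU replicate 2 (13) and BrdU replicate 3 (20).

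The make-up of the 3p arm does not use its level, and was tested between the 3 groups. The largest share of counts began at base 3 of the mature strand, as in the first tag printed above, which lacks the first base of the seed. That share was 44.3%, 46.7% and 60.2% in control, 30.1%, 52.9% and 44.2% in L-Tyr, and 47.7%, 50.7% and 49.9% in BrdU cells. The libraries of all 3 groups overlapped, and an exact permutation test over the 9 libraries gave p = 0.575 (adjusted p = 0.911 over 3 shares). The share of 20 base tags gave p = 0.954 and the share of the most abundant tag p = 0.607 in the same exact permutation test, whose smallest possible p is 0.00357.

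L-Tyr replicate 1 stood apart in make-up. Tags that began at base 1 held 47.7% of its 3p counts, against 11.3% to 29.6% in the other libraries. Its share of the row without a sequence in the joined counts was 12.5%, against 21.6% to 26.8% elsewhere. The 3p tag 5, which starts at base 1, had 125 counts there, while tag 2 had 152.

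By tag, the mean level in BrdU cells relative to control was 2.32, 2.52, 2.59, 1.91 and 2.86 for tags 1 to 5. Tag 4 had 204, 1112 and 451 CPM in the BrdU libraries, so its mean leaned on replicate 2, without which the ratio was 1.06. Tag 5 had 177, 168 and 447 CPM there, and without BrdU replicate 3, the library with the stromal markers, its ratio was 1.87. In L-Tyr cells relative to control the same ratios were 1.29, 2.00, 1.39, 0.876 and 3.85. The last of these leaned on L-Tyr replicate 1, where tag 5 had 799 CPM against 172 and 95.9 in the other 2 L-Tyr libraries. Without that library the ratio was 1.45. Tag 1 had 1112, 2583 and 1689 CPM in the L-Tyr libraries, and without L-Tyr replicate 2 its ratio was 1.01.

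Set beside other arms, the start at base 3 was common for miR-22-3p. Among 81 other 22 base arms with a mean count of at least 50, the median share of counts starting there was 28.5%, and 3 were at or above the 48.9% of miR-22-3p. The share starting at base 1 was 24.3% against a median of 21.7%. Tags with the whole seed held 26.9% of the 3p counts, against a median of 35.6% in those arms, of which 52 were at or above it. All of these values are limited to tags of 13 to 20 bases, so they describe the tags that the table lists and not the ends of whole mature strands.

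**Figure D4:**
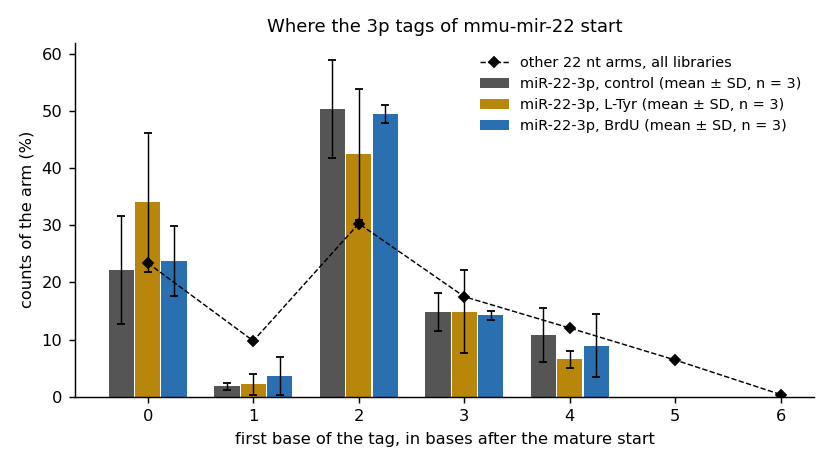
Share of the 3p counts of mmu-mir-22 (y axis, %) by the first base of the tag, in bases after the mature start (x axis), as mean ± SD of 3 libraries per group, with the pooled share over other 22 base arms as diamonds. The bars peak at 2 bases after the start (base 3) in each group, above the diamond of 30.3%.

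Among 179 hairpin arms with a mean count of at least 50, the 5 whose log2 CPM followed mmu-mir-22 3p most closely over the 9 libraries were named. These were mir-129-2 5p (Pearson r = 0.855), mir-129-1 5p (r = 0.849), mir-24-2 3p (r = 0.840), mir-191 5p (r = 0.828) and mir-455 3p (r = 0.802). The 9 points fall in 3 exposure groups and share the same scaling factors, so r describes these libraries only. The predicted tags had r = 0.935 and the row without a sequence r = 0.888.

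Both mir-129 hairpins give the same mature 5p strand, so their arms are 1 pattern. mir-129-2 5p had 2396, 2682 and 2897 CPM in control, 5344, 6224 and 5307 in L-Tyr, and 9042, 6450 and 5989 in BrdU cells. Its L-Tyr libraries lay above all control libraries, and BrdU replicate 3 fell within the L-Tyr range, unlike mmu-mir-22 3p. mir-24-2 3p moved far less, from 21520 CPM in the lowest control library to 32636 in BrdU replicate 3.

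**Figure D5:**
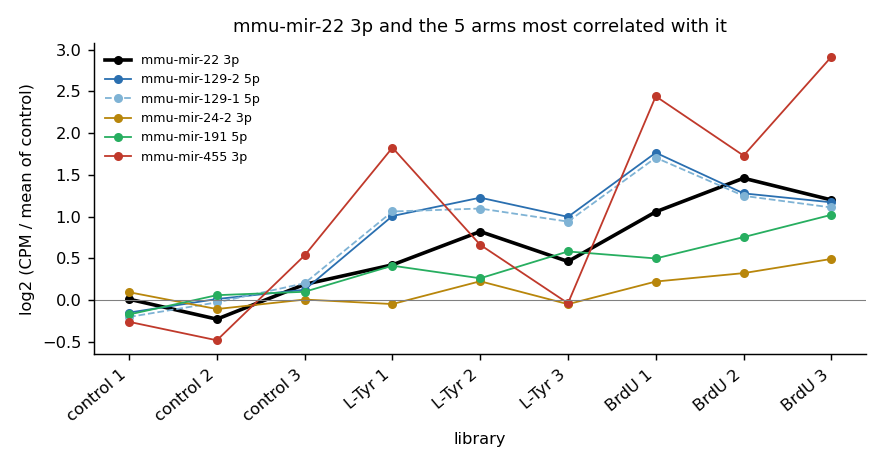
Log2 of CPM over the control mean (y axis) in the 9 libraries (x axis) for mmu-mir-22 3p (thick line) and the 5 arms with the highest Pearson r. All lines are above 0 in the BrdU libraries, with mir-24-2 3p the flattest and mir-455 3p the most uneven.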

How the data were processed

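Small RNA of 9 B16F1 cultures was sequenced by the authors (TruSeq Small RNA, single reads), who aligned reads of 17 to 35 bases to mm9 and miRBase with the BaseSpace Small RNA application. The deposited counts are raw, unnormalised counts per sequence tag, mature name or predicted hairpin, and the deposited normalised values and comparison columns were not used. Tags were summed by entry and arm (start number under 35 for 5p, otherwise 3p), giving 2638 sums, 781 of them with counts.

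The sums were compared between 2 groups at a time (6 libraries) with edgeR 4.0.16 in R 4.3.3 (TMM, filterByExpr, quasi-likelihood F test, Benjamini-Hochberg over all sums, calls at 0.05). The SE was the log2 fold change divided by the square root of F. Shares were compared by exact permutation over 1680 assignments. The alternatives included DESeq2 1.42.0. Tests were tested on simulated data. For r, CPM were put on a log2 scale (prior count 2). Hairpins came from RefSeq, which matched 340 of 391 hairpins with tags. Totals of 144452 to 424122 counts limit the precision, and intervals cover counting error only.

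The members, the marker lists and the tests were chosen with earlier results of these data known. Named items were every member, the 5 leading 3p tags and leading 5p tag, miRNAs sharing a seed and the 5 arms of highest r. A further list in that rule is not reported here. No sample was left out.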

Additional observations from a re-analysis of the deposited data

How the results depend on the processing

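The log2 fold change of mmu-mir-22 3p kept its direction under 16 other settings in each comparison. It ranged from 0.41 to 0.82 for L-Tyr against control (adjusted p 0.0549 to 0.887, never under 0.05), from 1.25 to 1.44 for BrdU against control and from 0.51 to 0.91 for BrdU against L-Tyr. The sum of both entries was chosen after seeing the data and was fitted under a single setting in each comparison. It gave 0.63 for L-Tyr against control, 1.30 for BrdU against control and 0.71 for BrdU against L-Tyr. For the L-Tyr 5p arm the sign turned when the most abundant tag of the whole table was left out (-0.0038). It also turned with a replicate block (-0.15), without control replicate 3 (-0.49) and without L-Tyr replicate 1 (-1.50). For the row without a sequence it turned without L-Tyr replicate 2 (-0.0029). Leaving out 1 library gave -1.50 to 0.73 and -0.0029 to 0.65 for these. The cause was not tested. Same-numbered libraries did not deviate together (r from -0.10 to 0.04, and 2 of 9 libraries correlated best with their own number), and the replicate block gave 0.60, 1.31 and 0.73 for mmu-mir-22 3p.

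The number of calls over all sums moved more. From 7 in L-Tyr against control it went to 14 with no filter, 1 with the replicate block, 19 with DESeq2 and 1 with tags as listed, and leaving out 1 library gave 0 to 10. From 9 in BrdU against control it went to 3 by total count, 52 with no filter, 1 with the block, 25 with DESeq2 and 0 with tags as listed (156 at an unadjusted p under 0.05 in edgeR), and leaving out 1 library gave 1 to 15. From 6 in BrdU against L-Tyr it went to 27 with no filter, 3 with all 9 libraries in one fit, 0 with the block (28 at an unadjusted p under 0.05 in edgeR), 10 with DESeq2 and 2 with tags as listed, and leaving out 1 library gave 0 to 5. The 0 calls came without L-Tyr replicate 3 (37 unadjusted) and without BrdU replicate 2 (39 unadjusted). The permutation p of the 3 shares stayed above 0.05 under all 11 alternatives each, from 0.157 to 0.986. The 5p arm could not be fitted with a mean count of at least 50 or, in the 2 L-Tyr comparisons, with tags as listed.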
